A study of Rattus norvegicus with 8 samples.

Results

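The killer lectin-like receptor genes of the rat were examined in immune cells enriched from liver, taken as every gene row whose symbol starts with Klr or Ly49. These are 26 rows with 24 symbols out of 32754 genes, 19 of them named Klr and 7 named Ly49. Klra is the standing symbol for several Ly49 genes, so Klra and Ly49 members belong to 1 family. Transcripts were counted by droplet-based single-cell sequencing (Chromium). A barcode names the droplet, and a unique molecular identifier (UMI) names each captured transcript in it. Barcodes with at least 500 UMIs were used, 34053 in all.

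The cells came from 4 male Han Wistar rats. NC1 and NC2 had been fed a choline-sufficient diet (CSAA), and PC1 and PC2 one without enough choline (CDAA), both of them amino acid-defined. Each animal gave 1 fresh library without preservation and 1 library of cells cryopreserved in DMSO for 3 weeks. Libraries of cryopreserved cells were made later than the fresh ones, and this difference in day cannot be told apart from the preservation itself.

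Killer lectin-like receptors are C-type lectin-like membrane proteins of natural killer (NK) cells and of some T cells, and most of their genes lie together in the natural killer gene complex. Klrd1 (CD94) pairs with Klrc1 or Klrc2 to read non-classical MHC class I molecules, and Klre1 pairs with Klri1 or Klri2. Klrk1 (NKG2D) is an activating receptor for stress-induced ligands, the Klrb1 genes bind Clec2 ligands, and Klrg1 binds cadherins. The Ly49 receptors bind classical or non-classical MHC class I molecules. In the rat names s marks a stimulatory and i an inhibitory form. Individual NK cells are known to express only some of the Ly49 genes of an animal, so that a population carries many combinations.

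Of the 26 rows, 24 had at least 1 UMI and 20 had at least 100. Ly49i7 and 1 of the 3 rows named Klra5 (ENSRNOG00000046046) had no UMI in any library. Ly49si2 had 6 UMIs over all libraries, Ly49si3 had 5, Klrg2 had 2 and another Klra5 row (ENSRNOG00000060202) had 1. Klra5 below is therefore the remaining row, ENSRNOG00000058775. Ly49 genes are close paralogs, and the reads were assigned to 1 reference genome while the animals were outbred. How reads were divided between near-identical Ly49 copies was not tested, so each Ly49 value stands for reads assigned to that row.

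Promoters of 4 Ly49 genes that were found in the same cells more often than their single frequencies give (described further on), and of Klra2, which had another cell distribution, are shown so that their shared words can be seen. RefSeq gave a promoter for 20 of the 24 symbols. All 5 lie on chromosome 4 of GRCr8 on the minus strand, from 250 bases before to 50 bases after the annotated start, written 5′ to 3′. Capitals mark the words CAGCTTTCA, CAATTTCCT, CAAGAGGAGG and TTTCCTCTT, and CAATTTCCT overlaps TTTCCTCTT in 4 of them.
Klra5, chr4:166554801-166555100: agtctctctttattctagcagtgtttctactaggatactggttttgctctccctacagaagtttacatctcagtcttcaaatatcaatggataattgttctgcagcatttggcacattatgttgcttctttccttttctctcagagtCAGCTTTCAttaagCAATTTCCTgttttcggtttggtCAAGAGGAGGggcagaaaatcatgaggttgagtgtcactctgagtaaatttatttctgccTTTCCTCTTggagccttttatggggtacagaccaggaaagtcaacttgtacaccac
Klra22, chr4:165742976-165743275: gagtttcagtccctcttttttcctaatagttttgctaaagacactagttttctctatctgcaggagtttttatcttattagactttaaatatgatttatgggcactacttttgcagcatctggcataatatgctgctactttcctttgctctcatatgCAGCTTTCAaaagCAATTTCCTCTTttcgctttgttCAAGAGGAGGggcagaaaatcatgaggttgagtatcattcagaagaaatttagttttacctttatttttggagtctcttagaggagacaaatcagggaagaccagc
Ly49s6, chr4:165790021-165790320: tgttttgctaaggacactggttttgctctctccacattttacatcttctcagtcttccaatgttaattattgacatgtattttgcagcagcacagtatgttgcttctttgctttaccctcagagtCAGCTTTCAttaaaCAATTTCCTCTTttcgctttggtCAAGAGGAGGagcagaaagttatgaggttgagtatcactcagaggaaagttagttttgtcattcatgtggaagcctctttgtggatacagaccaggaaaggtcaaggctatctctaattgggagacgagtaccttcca
Ly49s5, chr4:165645467-165645766: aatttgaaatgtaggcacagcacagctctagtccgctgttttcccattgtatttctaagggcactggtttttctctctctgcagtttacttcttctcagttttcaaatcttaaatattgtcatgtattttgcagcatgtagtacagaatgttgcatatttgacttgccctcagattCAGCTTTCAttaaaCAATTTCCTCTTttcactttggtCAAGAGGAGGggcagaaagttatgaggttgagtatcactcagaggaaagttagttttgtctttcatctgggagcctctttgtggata
Klra2, chr4:166716753-166717052: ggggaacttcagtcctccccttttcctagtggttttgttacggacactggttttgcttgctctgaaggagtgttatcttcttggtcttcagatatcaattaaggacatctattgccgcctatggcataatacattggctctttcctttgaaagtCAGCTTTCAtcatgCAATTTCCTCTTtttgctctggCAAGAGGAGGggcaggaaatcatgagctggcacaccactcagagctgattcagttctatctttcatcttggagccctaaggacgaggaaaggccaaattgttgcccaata

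CAAGAGGAGG was in 0.290% of 33469 rat promoters of this length, searched on both strands, CAATTTCCT in 0.400%, CAGCTTTCA in 0.430% and TTTCCTCTT in 1.11%. Among the 10 Klra and Ly49 promoters, CAAGAGGAGG and CAGCTTTCA were in these 5, and the other words also in Klra1. The words were picked because these promoters share them, so their frequency is a description. The promoter of Klra5 was identical to that of Klra22 at 73.0% of aligned bases and to that of Ly49s6 at 70.0%. Its identity was 67.0% to that of Klra2, 65.0% to that of Ly49s5 and 48.9% to that of Ly49i3, which held none of the 4 words. Ly49i3 was also found with Klra22 more often than their single frequencies give, in a class of barcodes described further on. Whether the words go with joint detection was not tested.

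The libraries held 18338700 to 26471843 UMIs and 3673 to 4771 barcodes with at least 500 UMIs, with a median of 3339 to 4309 UMIs each. Any 2 libraries shared 13 to 36 of these barcodes, where up to 29.75 would be shared if each library drew at random from the barcodes of the system. Doublets were not called. The labelled material contains more than lymphocytes, since Kupffer cell, monocyte, plasmacytoid dendritic and B cell markers were all found in every library. NC1 DMSO had the fewest barcodes with Ncr1, a receptor of NK cells, and without Cd3e, a chain of the T cell receptor complex, 253 in all against 403 to 1235 in the others.

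A few genes held most of the UMIs. Klrd1 had 81277 UMIs over all libraries, 26.5% of all member UMIs, and Klrb1b, an inhibitory receptor of the Klrb1 group, had 69049, 22.5%. Klre1 followed with 33562 UMIs, Klri2 with 23837, Klri1 with 20949, Ly49s6 with 13019, Klrc2 with 11272 and Klrb1c with 9951. These 8 genes made up 85.8% of the member UMIs, which are tags from transcript ends and not levels per length. The remaining rows with at least 100 UMIs ranged from Klrk1 with 9730 to Klrb1 with 101.

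Receptor transcripts were also found outside cells. Barcodes with 1 to 100 UMIs, which are mostly droplets without a cell, held 31761 member UMIs over all libraries. Member UMIs made up 1325 to 2541 counts per 1000000 UMIs (CPM) there, and 1026 to 2441 CPM in barcodes with at least 500 UMIs. In total, 2840 to 4311 barcodes per library had a member UMI, and a single UMI in a barcode therefore does not mark a cell that expresses the gene. For this reason classes of barcodes were also set by marker levels per 10000 UMIs and compared with barcodes high in Cd79a and Cd79b, the B cell receptor chains, which should lack most of these receptors. These classes were chosen after seeing the data and do not use the receptor genes. The cytotoxic Cd3-low class had at least 60 UMIs of Nkg7, Prf1, Gzma and Gzmb together and under 10 of Cd3e, Cd3d and Cd3g. The Cd3-high class had at least 15 of the Cd3 genes and under 40 of the cytotoxic ones. The Cd79-high class had at least 15 of Cd79a and Cd79b, under 40 of the cytotoxic genes and under 10 of the Cd3 genes. It also had under 30 of plasmacytoid dendritic markers and under 60 of C1qa, C1qb and C1qc. The limit on cytotoxic genes can leave out barcodes with much free NK cell RNA, and its effect was not tested.

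The cytotoxic Cd3-low barcodes numbered 371 to 1348 per library, with a median depth of 2667 to 4853 UMIs, and 53.2% to 71.3% of them had an Ncr1 UMI. The Cd79-high barcodes numbered 80 to 272, with a median depth of 2370 to 3207.5 UMIs. A Klrd1 UMI was found in 83.4% to 97.0% of cytotoxic Cd3-low barcodes and in 24.3% to 52.0% of Cd79-high ones. For Klrb1b these shares were 85.9% to 96.3% and 21.4% to 48.2%. For both genes every library had more cytotoxic than Cd79-high barcodes with a UMI.

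Other members were found in smaller parts of the cytotoxic class. The share with a UMI was 68.3% to 88.2% for Klre1, 49.3% to 71.2% for Klri1, 32.8% to 63.7% for Klri2 and 38.8% to 54.8% for Klrc2. It was 28.5% to 45.1% for Klrk1 and 18.8% to 51.1% for Klrg1. Klrc1, the inhibitory partner of Klrd1, was found in 3.62% to 9.30%. Of the Ly49 genes, Ly49s6 was the most frequent with 19.3% to 42.5%, while Klra5 was found in 5.09% to 31.0% and Klra22 in 5.19% to 17.4%. In Cd79-high barcodes Ly49s6 reached 2.35% to 11.5%, Klra5 0.952% to 12.7% and Klra22 0% to 5.14%.

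Against Cd79-high barcodes, 16 of 17 members tested were higher in the cytotoxic Cd3-low class, in fresh as in DMSO libraries, with Klra2 as the exception (edgeR quasi-likelihood test blocked by animal, Benjamini-Hochberg adjusted p under 0.05). Of all genes tested, 12.6% were higher in the fresh and 12.3% in the DMSO libraries. The median log2 fold change of the 17 members was 2.62 in fresh and 2.80 in DMSO libraries, against -0.00 and -0.02 over all genes. In fresh libraries Klrb1c differed by 3.00 on the log2 scale (SE 0.18), Klrd1 by 2.71 (SE 0.10) and Klra22 by 1.67 (SE 0.39). Klra2 differed by 0.13, with an edgeR adjusted p of 0.855.

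**Figure D1:**
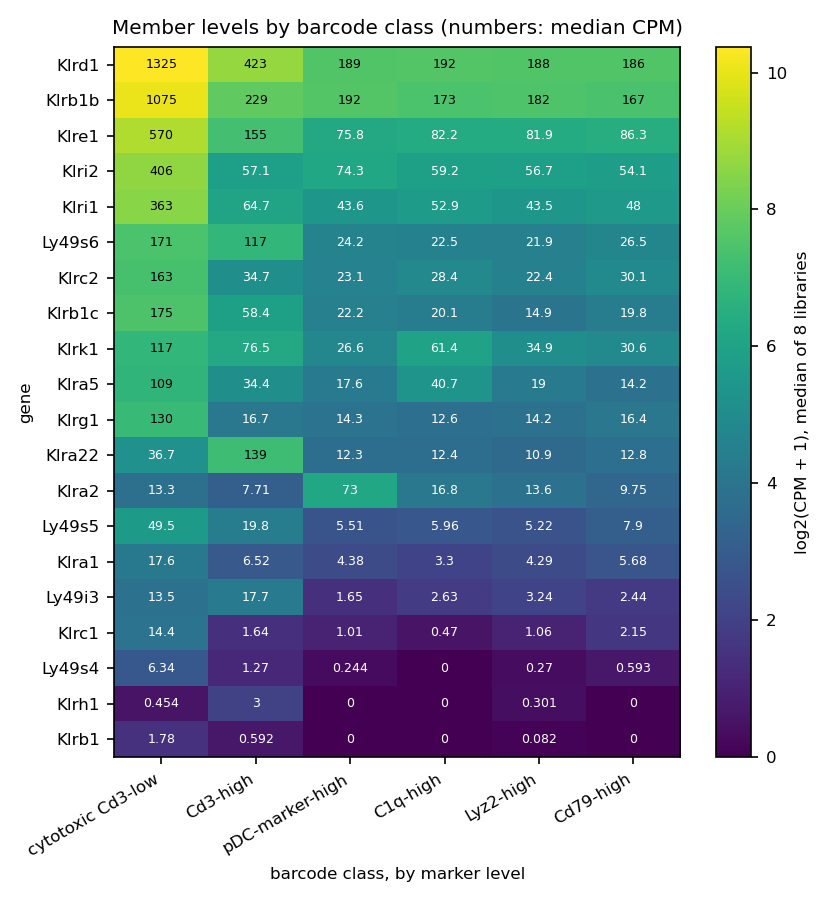
Level of the 20 receptor genes with at least 100 UMIs (rows) in 6 classes of barcodes set by marker levels (columns). Colours give the median over 8 libraries as log2(CPM + 1) and the numbers the median in CPM. Most genes are highest in the cytotoxic Cd3-low class, whereas Klra22, Ly49i3 and Klrh1 are highest in the Cd3-high class and Klra2 in the class high in plasmacytoid dendritic (pDC) markers.

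A few members were higher in the Cd3-high class than in the cytotoxic one. Klra22 had 81.6, 130, 149 and 155 CPM in Cd3-high barcodes of NC1, NC2, PC1 and PC2 when fresh, and 108, 166, 174 and 104 CPM after DMSO. In cytotoxic Cd3-low barcodes of the same libraries it had 19.4, 58.8, 60.2 and 24.7 CPM, and 21.5, 60.8, 41.5 and 31.8 CPM. Cd79-high barcodes had 15.0, 16.6, 10.7 and 0 CPM, and 3.84, 20.5, 15.8 and 0 CPM. The Cd3-high values were above both other classes in every library, without overlap. In PC2, 0 of 80 fresh and 0 of 85 DMSO Cd79-high barcodes had a Klra22 UMI, which allows shares of up to 3.75% and 3.53% of barcodes with a UMI by counting error alone and sets no limit on cells that express the gene.

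Against Cd79-high barcodes, Klra22 was higher in the Cd3-high class by 3.37 on the log2 scale in fresh libraries (SE 0.35, edgeR adjusted p = 5.84e-09) and by 3.60 in DMSO libraries (SE 0.27, adjusted p = 7.3e-12). A Klra22 UMI was found in 13.2% to 23.9% of Cd3-high barcodes, at median depths of 3317 to 4882 UMIs. In all, 9 of 17 members were higher in the Cd3-high class in fresh libraries and 10 in DMSO libraries, where 9.97% and 10.1% of all genes were. Beside Klra22 these were Ly49i3 with log2 fold changes of 2.69 and 3.16, Ly49s6 with 2.16 and 2.28, Klrb1c, Klrk1, Ly49s5, Klrd1, Klre1 and Klrb1b. Klra5 passed only in DMSO libraries, with 1.47 (adjusted p = 0.000431) against 0.82 in fresh ones (adjusted p = 0.136). The difference between fresh and DMSO was not tested. Klrg1, Klrc1, Klrc2, Klri1 and Klri2 did not pass in either. Klrh1, with 122 UMIs in all, had a median of 3.00 CPM in Cd3-high and of 0.454 CPM in cytotoxic Cd3-low barcodes.

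Set against the barcodes of 1 to 100 UMIs of the same library, the Cd3-high class was above their level for only some members. Klra22 was 4.28 times as high (median over libraries, range 3.02 to 8.07), Ly49i3 2.61, Ly49s6 1.60, Klrk1 1.42 and Klrb1c 1.14 times. Over the 16 members with at least 1000 UMIs the median ratio was 0.775. Ly49s5, Klre1, Klrd1 and Klrb1b had 0.886, 0.818, 0.733 and 0.613, although they were called higher than in Cd79-high barcodes. A ratio below 1 thus does not show that a gene was not expressed. In Cd79-high barcodes the median ratio ranged from 0.304 to 0.575 over the members and was thus below 1 for each of them. In the cytotoxic Cd3-low class it ran from 0.454 for Klra2 to 3.50 for Klrg1, with a median of 2.28.

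**Figure D2:**
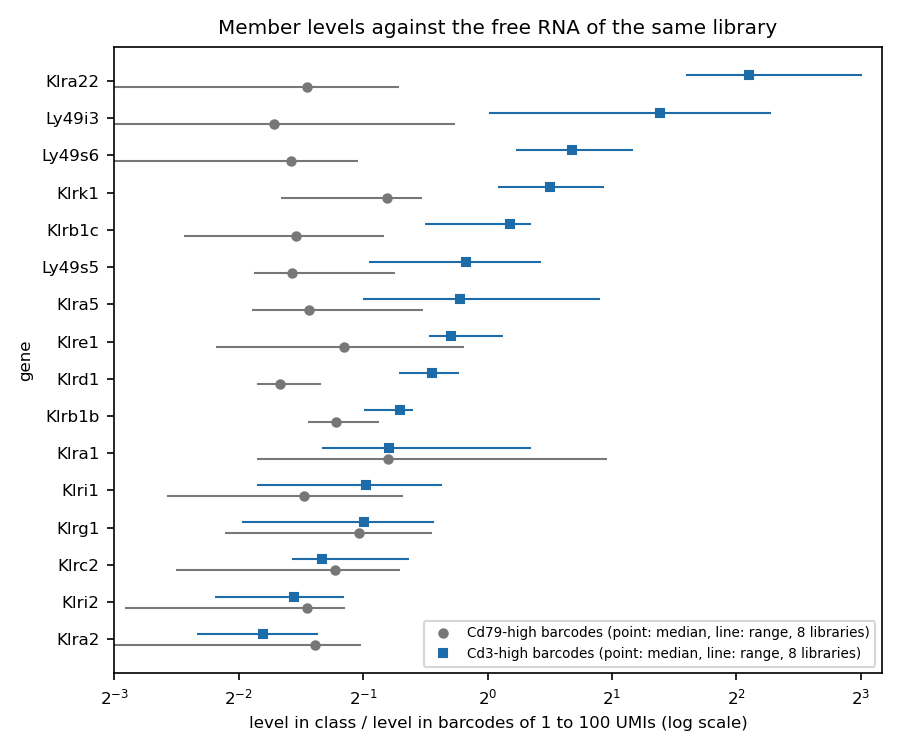
Ratio of each receptor gene's level in Cd3-high (squares) and Cd79-high barcodes (circles) to its level in barcodes of 1 to 100 UMIs of the same library, on a log axis, with symbols as medians and lines as the range over 8 libraries. Lines that reach the left edge include libraries with a ratio below the axis or at 0. Klra22 in Cd3-high barcodes stands above 1 in every library, with a median of 4.28.

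Klra2 was highest in another class. In barcodes high in the plasmacytoid dendritic markers Siglech, Tcf4, Irf8 and Bcl11a it had 44.4, 71.3, 74.7 and 62.2 CPM in fresh NC1, NC2, PC1 and PC2, and 67.7, 83.8, 93.4 and 85.4 CPM after DMSO. Cytotoxic Cd3-low barcodes had 13.0, 8.19, 13.7 and 5.09 CPM, and 13.5, 16.3, 15.0 and 9.28 CPM. The lowest plasmacytoid dendritic value was above the highest cytotoxic one. A Klra2 UMI was found in 26.4% to 47.5% of the 117 to 362 plasmacytoid dendritic marker-high barcodes per library. Over all barcodes, 333 to 497 per library had a Klra2 UMI, so most of these were outside the class.

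Against Cd79-high barcodes Klra2 was higher by 2.72 on the log2 scale in fresh (SE 0.30, edgeR adjusted p = 9.97e-09) and by 2.53 in DMSO libraries (SE 0.24, adjusted p = 9.32e-10). It was the single member of 17 that was higher in this class, where 16.1% of all genes were higher in fresh and 16.8% in DMSO libraries. Klrc2 and Klre1 were lower in fresh libraries, with log2 differences of -0.63 and -0.39, where 17.1% of all genes were lower. These barcodes also held T cell and NK cell transcripts, with Cd3e in 7.69% to 42.3% and Ncr1 in 5.80% to 23.9% of them. B cell markers made up 689 to 877 CPM in them, against 99.4 to 226 CPM in cytotoxic Cd3-low barcodes. The part of these transcripts in the other members' values was not tested.

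In barcodes high in the complement genes C1qa, C1qb and C1qc, which mark Kupffer cells, Klrk1 was higher than in Cd79-high barcodes by 0.66 on the log2 scale in fresh libraries (edgeR adjusted p = 0.0344) and by 0.92 in DMSO libraries (adjusted p = 0.00409). Klra5 was higher in DMSO libraries by 1.70 (adjusted p = 4.98e-05) and differed by 0.63 in fresh ones (adjusted p = 0.27). Only 33 to 97 barcodes per library made up this class, in which 21.6% of all genes were higher in fresh and 20.9% in DMSO libraries. The share of members called was thus below that of all genes. In barcodes high in the monocyte gene Lyz2, 0 of 17 members were called by edgeR, in fresh as in DMSO libraries, where 21.6% of all genes were higher and 20% lower in fresh and 20.9% and 18% in DMSO libraries.

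The next comparison asks how the members were split between NK and T lymphocytes. Barcodes with at least 1 Ncr1 UMI and no Cd3e UMI were summed per library and set against barcodes with a Cd3e UMI and no Ncr1 UMI. In fresh libraries 731 to 1197 barcodes were Ncr1 positive and 312 to 1426 Cd3e positive, and after DMSO 253 to 1235 and 384 to 1231. Of 18 members tested, 15 were higher in Ncr1 positive barcodes and 1, Klra22, was lower, in fresh and in DMSO libraries alike (edgeR with the animal as a block). Among all genes 8.42% were higher and 9.38% lower in fresh libraries, and 8.73% and 9.65% after DMSO.

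Klri2, the activating partner of Klre1, had 213, 283, 268 and 320 CPM in fresh Ncr1 positive barcodes of NC1, NC2, PC1 and PC2, and 46.6, 110, 81.0 and 94.2 CPM in Cd3e positive ones. The groups did not overlap. Klri2 had the highest log2 fold change in fresh libraries, 1.75, followed by Klrc1 with 1.74, Klrb1b with 1.58 (SE 0.05), Klri1 with 1.55 and Ly49s4 with 1.53. After DMSO Klrc1 and Klri1 had 2.02, Ly49s4 2.01, Klri2 2.0 and Klrg1 1.87. Klrd1 had 731, 995, 847 and 920 CPM in fresh Ncr1 positive barcodes and 282, 445, 314 and 326 CPM in Cd3e positive ones, a log2 fold change of 1.36.

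Klra22 went the other way. In fresh libraries of NC1, NC2, PC1 and PC2 it had 26.9, 55.7, 55.1 and 24.4 CPM in Ncr1 positive and 44.6, 88.1, 56.4 and 51.6 CPM in Cd3e positive barcodes. After DMSO the values were 25.4, 53.2, 47.2 and 28.3 CPM against 48.5, 108, 51.1 and 47.9 CPM. The level was lower in Ncr1 positive barcodes in 4 of 4 animals each time, although the ranges overlapped and PC1 differed little. Klra22 fell by 0.56 on the log2 scale in fresh (SE 0.11, edgeR adjusted p = 0.00151) and by 0.65 in DMSO libraries (SE 0.12, adjusted p = 0.000575).

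The other low values were those of Klra2 with -0.35 (adjusted p = 0.0548), Ly49i3 with 0.45 (adjusted p = 0.135), Klrk1 with 0.71 and Ly49s6 with 0.73 in fresh libraries, of which the last pair passed. After DMSO they were -0.27, 0.01, 0.79 and 0.79 in the same order. With the classes set by marker level in place of a single UMI, the Klra22 difference was -1.88 in fresh and -1.90 in DMSO libraries. This alternative was chosen after seeing the data. The cytotoxic Cd3-low class was then set against barcodes with at least 15 UMIs of the Cd3 genes per 10000 UMIs. These had no upper limit on the cytotoxic genes and so were not the Cd3-high class. Ly49i3 then became lower in the cytotoxic class in fresh libraries (-0.55, adjusted p = 0.027), and Ly49s6 lost its call (0.22, adjusted p = 0.057 in fresh libraries, and 0.18, adjusted p = 0.112 after DMSO). The sign of Klra2 turned, to 0.44 in fresh (edgeR adjusted p = 0.205) and 0.64 in DMSO libraries (adjusted p = 0.0532).

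The genes that work with these receptors were compared in the same fits, from lists put together with earlier results of these data known. Of the adaptors and signalling genes, such as Hcst and Tyrobp, 10 of 18 tested were higher and 2 lower in fresh Ncr1 positive barcodes, with a median log2 fold change of 0.29 against -0.00 over all genes. After DMSO 11 were higher and 2 lower of 17. Ligand genes (Clec2, Raet1, cadherin and MHC class I genes) were higher in 1 of 18 in fresh and 9 of 16 in DMSO libraries, with medians of 0.05 and 0.17. The difference between fresh and DMSO libraries in ligand genes was not tested. Of all genes 8.42% were higher and 9.38% lower in fresh libraries, and 8.73% and 9.65% after DMSO. Among other NK surface receptors 13 of 17 were higher and 1 lower in fresh libraries, and 13 and 1 of 18 after DMSO. All 7 NK markers tested were higher. Both of these lists hold Ncr1, which set the groups and is higher by construction.

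Ncr1 positive sums were not free of other cells. Monocyte markers made up 3382 to 7591 CPM in them, Kupffer cell markers 341 to 1835, plasmacytoid dendritic markers 524 to 924 and B cell markers 172 to 413. Apart from Cd3e, which is absent by construction, the defining markers of these lists were above 0. Their part in the members' values was not tested.

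Several members were found together in single barcodes. Ncr1 positive barcodes had a mean of 4.43 to 6.70 members with a UMI, cytotoxic Cd3-low ones 4.88 to 7.37, Cd3-high ones 2.38 to 4.10 and Cd79-high ones 0.81 to 2.28. Thinned to 1000 UMIs per barcode, the means were 2.27 to 2.87, 2.79 to 3.51, 0.93 to 1.42 and 0.35 to 0.86. The order of the cytotoxic, Cd3-high and Cd79-high classes thus stayed at equal depth, with no overlap between them.

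The Ly49 genes formed many combinations. In Ncr1 positive barcodes 130 distinct sets of Klra and Ly49 members were found, counted from 1 UMI per member and without thinning. With the empty set included, 15 appeared in all 8 libraries, and 38 were in 1 barcode only. The Cd79-high barcodes, which were fewer, held 32 distinct sets, of which 15 were in 1 barcode only. No Klra or Ly49 UMI was found in 41.3% to 68.0% of Ncr1 positive barcodes. These had 1 member in 21.7% to 29.9%, a pair in 5.53% to 13.5% and 3 or more in 3.97% to 18.2%. The most in 1 barcode was 5 to 7 members, depending on the library. In Cd79-high barcodes 1 member was found in 7.62% to 26.4%, which overlaps with the Ncr1 positive range, and 3 or more in 0% to 1.1%. Ly49s6 alone was the most common set, in 7.69% to 13.3% of Ncr1 positive barcodes, followed by Klra5 alone in 1.78% to 6.20%. In Cd79-high barcodes Ly49s6 alone made up 1.43% to 7.11% and Klra5 alone 0.476% to 10.2%. Klra5 alone was thus not particular to Ncr1 positive barcodes. In Cd3-high barcodes Klra22 with Ly49s6 made up 2.56% to 7.08%.

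To see which members went together, the number of barcodes with both was compared with the number expected if they were independent within each library and each of 5 equal groups of barcodes by UMI count. Pairs were formed between members found in at least 3% of the barcodes of the class in every library. Over 91 pairs in Ncr1 positive barcodes the ratio of observed to expected had a median of 1.06. The highest was 2.1 for Klra22 with Klra5, found together in 353 barcodes where 168 were expected. Ly49s5 with Ly49s6 and Klra22 with Ly49s6 had 1.88, and Ly49s5 with Klra22 had 1.85. The highest 4 pairs were thus all of Ly49 genes. All 10 pairs of Klra and Ly49 members ranged from 0.90 to 2.1, and 5 of them were above 1 in all 8 libraries.

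At the low end were Klrg1 with Klra2 at 0.71 (106 barcodes, 150 expected), Klrg1 with Klra22 at 0.82, Klrk1 with Klra2 at 0.85 and Klrg1 with Klra5 at 0.86. Ncr1 positive sums also hold other cell types, so the same was done within the cytotoxic Cd3-low class, where the pairs named were chosen after their values were seen. There Klra2 did not reach the limit of 3% in every library and formed no pairs. The 6 pairs left of Klra and Ly49 members ranged from 1.59 to 2.1 and 5 of them were above 1 in all 8 libraries. The other 85 pairs had a median of 1.01 and none exceeded 1.19. The range of Klra22 with Klra5 over libraries was 1.68 to 3.49.

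Single shares show the same pattern. A Klra22 UMI was found in 21.2% to 37.1% of cytotoxic Cd3-low barcodes that had Klra5, and in 4.33% to 12.5% of those that did not. With Klra5, Klra22, Ly49s5 and Ly49s6, Klri2 had ratios of 1.1 to 1.19, each above 1 in all 8 libraries. Klri1 had 0.80 to 0.86 with the same genes, above 1 in 1 library for Klra22 and in none for the others. The difference between Klri1 and Klri2 was not tested. Klrc1 had 0.57 with Ly49s5 (41 barcodes, 72.5 expected), 0.65 with Klra5, 0.75 with Klra22 and 0.79 with Ly49s6, and every one of these pairs but that with Klra5 was above 1 in 1 or 2 libraries. In Cd3-high barcodes Klra22 with Ly49i3 had 2.60 (92 barcodes, 35.3 expected). Whether reads of 1 gene were assigned to both rows of a pair of close paralogs was not tested.

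**Figure D3:**
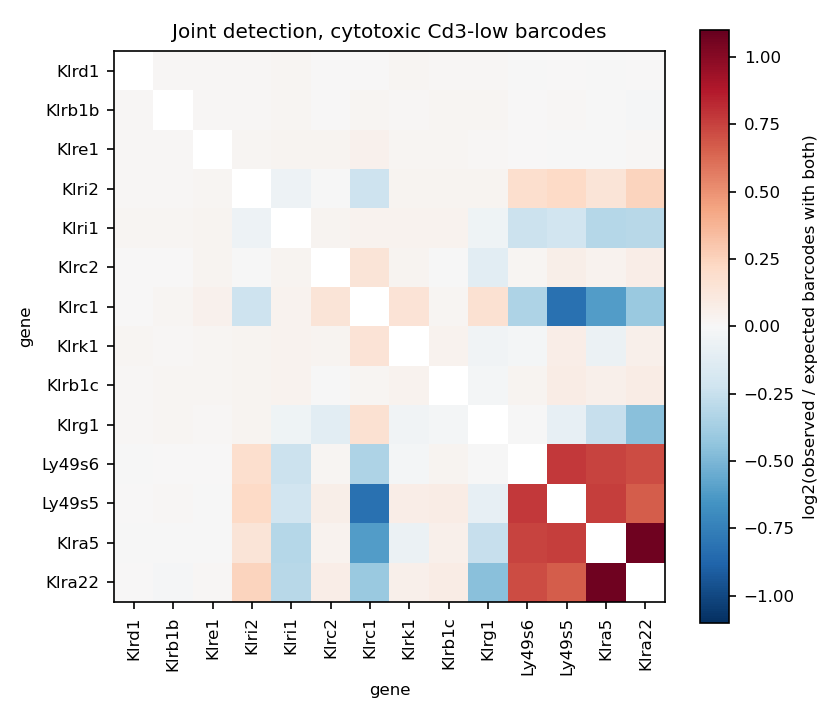
Observed over expected barcodes with both members for each pair of 14 receptor genes in cytotoxic Cd3-low barcodes, coloured on a log2 scale where 0 is independence within library and depth. The block of Klra22, Klra5, Ly49s5 and Ly49s6 holds ratios of 1.59 to 2.1, and the other pairs are at 1.19 or lower.

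Genes whose proteins are known partners were also looked at in pairs. A Klrd1 UMI was found in 82.0% to 98.0% of Ncr1 positive barcodes with Klrc2 and in 70.9% to 90% of those without it. For Klre1 the shares were 72.0% to 87.6% with and 48.7% to 65.9% without Klri1. In cytotoxic Cd3-low barcodes the median share with Klrd1 was 97.2% with and 93.1% without Klrc2, higher with it in 7 of 8 libraries. With and without Klrc1 it was 97.5% and 95.1%, higher with Klrc1 in 6 of 8. For Klre1 the medians there were 88.1% with and 77.1% without Klri1, higher with it in all 8. These shares are not thinned, and barcodes with a UMI of 1 gene are deeper.

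The levels were then compared between the 4 animals in Ncr1 positive barcodes. Of 18 members tested 12 differed between animal labels (edgeR F test with preservation as a covariate, adjusted p under 0.05), where 17.7% of all genes did. The test measures differences between animals against the spread between the fresh and DMSO libraries of 1 animal, which are aliquots of the same cells. Of the 12 called members 5 differed at least 2-fold between the highest and the lowest animal. Among all genes 8.09% were called with such a difference.

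Klra5 had 31.1, 112, 156 and 64.8 CPM in fresh Ncr1 positive barcodes of NC1, NC2, PC1 and PC2, and 44.8, 102, 142 and 72.6 CPM after DMSO. NC1 was lowest and PC1 highest both times, and no 2 animals overlapped. The difference between the highest and the lowest animal was 2.07 on the log2 scale (edgeR adjusted p = 5.63e-07). Klra5 transcripts in barcodes of 1 to 100 UMIs also differed, with 26.5, 60.2, 54.4 and 21.4 CPM in fresh and 14.3, 56.4, 58.6 and 39.0 CPM in DMSO libraries.

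Klra22 had 26.6, 55.7, 54.4 and 23.9 CPM in fresh libraries and 25.4, 53.8, 48.6 and 28.9 CPM after DMSO, a difference of 1.06 (adjusted p = 6.1e-05). NC2 and PC1 were high and NC1 and PC2 low. Ly49s6 was ordered in the same way, with 85.2, 150, 164 and 110 CPM in fresh and 108, 160, 147 and 116 CPM in DMSO libraries, and differed by 0.73 (adjusted p = 0.00106). Ly49s5 had 25.9, 48.0, 44.6 and 27.8 CPM, and 24.4, 48.6, 31.9 and 28.7 CPM, and differed by 0.94 (adjusted p = 0.00431). For each of these 4 genes, both animals with high levels stood above both animals with low levels within the same preservation, and each diet held 1 of each.

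Klra1 had another order, with 11.7, 10.5, 30.6 and 17.3 CPM in fresh and 9.16, 15.5, 34.4 and 18.3 CPM in DMSO libraries. PC1 was highest, and the difference was 1.52 (edgeR adjusted p = 0.000189). Klrg1 differed by 1.02 (adjusted p = 0.00427), Ly49i3 by 1.25 (adjusted p = 0.00496) and Klrb1c by 0.79 (adjusted p = 0.00103). Klre1, Klri1, Klri2 and Klra2 also passed, with adjusted p of 0.0149 to 0.0462. Klrb1b, Klrd1, Klrk1, Klrc2, Klrc1 and Ly49s4 did not.

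**Figure D4:**
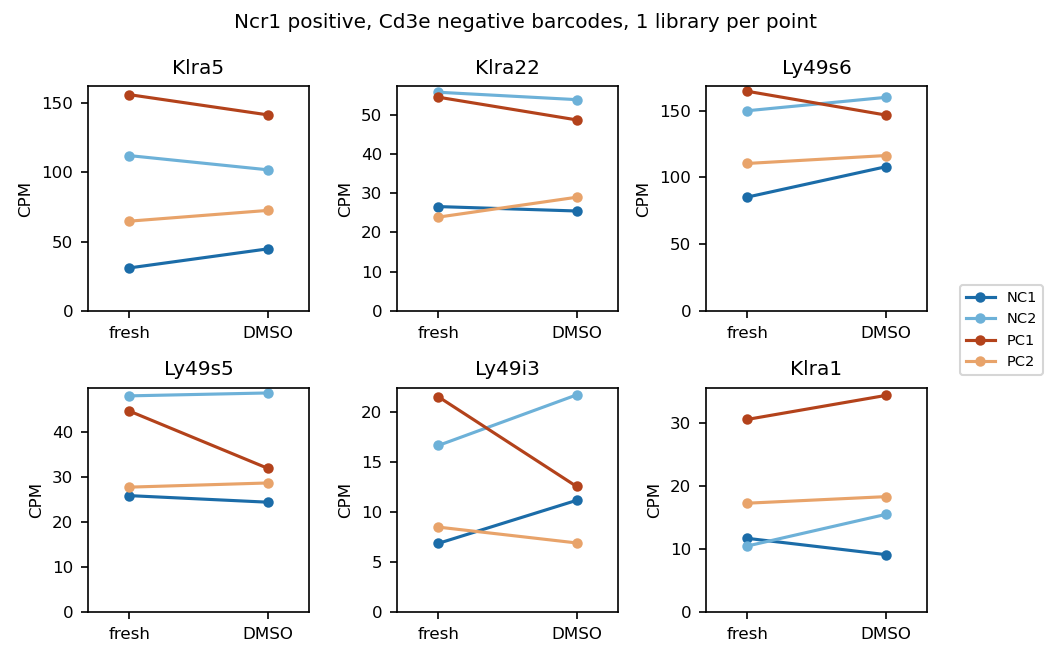
Level of 6 Klra and Ly49 genes in Ncr1 positive, Cd3e negative barcodes in CPM, with 1 point per library and lines joining the fresh and DMSO libraries of 1 animal. Klra5, Klra22, Ly49s6 and Ly49s5 are higher in NC2 and PC1 than in NC1 and PC2, and Klra1 is highest in PC1.

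Klra5, Klra22 and Ly49s6 kept their call whichever animal was left out. Klrg1 lost it without PC2 (adjusted p = 0.0766), Klrb1c without NC1 (0.447), Ly49s5 without NC2 (0.0901), Ly49i3 without PC2 (0.0852), Klra1 without PC1 (0.112) and Klre1 without NC2 (0.272). Klri1 lost it without NC1 (0.0561), NC2 (0.325) or PC1 (0.0522), Klri2 without NC2 (0.0648) or PC2 (0.178) and Klra2 without PC1 (0.317) or PC2 (0.219). Markers of other cells also differed between animals in these sums, with 6 of 6 B cell, 5 of 6 Kupffer cell, 5 of 5 monocyte and 3 of 4 plasmacytoid dendritic markers called. In cytotoxic Cd3-low barcodes 11 of 18 members were called, where 17.3% of all genes were, and the difference was 2.21 for Klra5 and 1.68 for Klra22. In Cd3-high barcodes 8 of 16 members differed between animals, where 7.65% of all genes did, with 0.79 for Klra22 (adjusted p = 0.00494) and 1.22 for Klri1 (adjusted p = 0.000504).

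The diets were compared with 2 animals each, separately for fresh and DMSO libraries. In Ncr1 positive barcodes 0 of 18 members were called by edgeR in either, and 0 by DESeq2. Each time 2 members had an unadjusted edgeR p under 0.05, as did 18.7% of all genes in fresh and 12.3% in DMSO libraries. Of all genes 0.779% were higher and 0.672% lower on the CDAA diet in fresh libraries, and 1.2% and 0.583% after DMSO. Klra1 had the lowest adjusted p in fresh libraries, with 12.0 and 10.6 CPM on CSAA and 31.1 and 17.7 CPM on CDAA, a log2 difference of 1.1 (SE 0.31, edgeR adjusted p = 0.137). After DMSO it had 9.04 and 15.3 against 33.7 and 18.0 CPM, a difference of 0.97 (SE 0.38, adjusted p = 0.32). The CDAA values were above the CSAA values for Klra1, but PC1 lay far above PC2. Of the Kupffer cell markers 2 of 6 were higher on CDAA in the fresh and 4 of 6 in the DMSO sums. Without NC2, Klrb1c was called higher on CDAA in fresh libraries. In DMSO libraries Ly49i3 was called lower on CDAA without PC1. Without PC2, Klra1 and Klra5 were called higher and Klrg1 lower. A larger share of all genes was also called in these fits than with every animal. Each of these fits leaves 1 library on 1 diet, which is assumed to vary like the other diet's libraries. In simulated data with 2 animals per diet, 61 of 100 genes changed 2-fold were found in the fresh comparison. In the DMSO comparison 47 of 100 were found. Every simulated gene had the same spread beyond counting error. Fresh Klra5 values lay more than 2-fold apart within either diet, so these shares may not hold for members with such a spread.

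For preservation, DMSO and fresh libraries were paired by animal. Over all barcodes, Klra2 was higher and Klrb1 lower after DMSO among 20 members tested, where 4.75% of all genes were higher and 4.33% lower. In sums over all barcodes, fewer cells of a type and less RNA per cell cannot be told apart. Klra2 rose from 19.8, 21.0, 22.9 and 16.7 CPM in NC1, NC2, PC1 and PC2 to 28.4, 33.0, 30.2 and 22.8 CPM, in 4 of 4 animals and by 0.50 on the log2 scale (SE 0.07, edgeR adjusted p = 0.00436). The plasmacytoid dendritic markers moved with it, with 3 of 4 called higher. Barcodes high in these markers made up 5.95%, 3.02%, 3.21% and 2.55% of barcodes in fresh and 9.86%, 4.95%, 5.13% and 4.46% in DMSO libraries.

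Within these barcodes Klra2 was also higher after DMSO, by 0.42 on the log2 scale (SE 0.11, edgeR adjusted p = 0.033), and was the single member called of 13, where 1.75% of all genes were higher. The level thus also differed within the class, beside its larger share of barcodes. Outside it, Klra2 differed by 0.61 in cytotoxic Cd3-low barcodes (SE 0.20, edgeR adjusted p = 0.0733). In Ncr1 positive barcodes the difference was 0.50 (edgeR adjusted p = 0.0712). Neither passed, and whether the rise was particular to this class was not tested. In barcodes of 1 to 100 UMIs Klra2 had 19.7, 27.1, 24.7 and 26.7 CPM in fresh libraries. After DMSO the values there were 27.2, 34.0, 34.8 and 35.7 CPM.

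**Figure D5:**
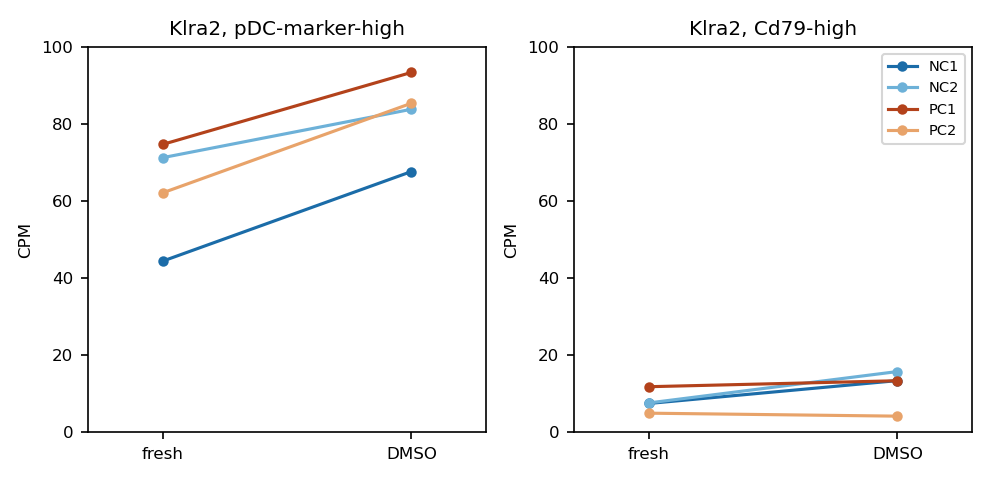
Level of Klra2 in fresh and DMSO libraries in CPM, in barcodes high in plasmacytoid dendritic markers (left) and in Cd79-high barcodes (right), with lines joining the libraries of 1 animal. The left panel runs from 44.4 to 93.4 CPM and is higher after DMSO in 4 of 4 animals, and the right panel stays at or below 15.8 CPM.

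Klrb1 was counted in 101 UMIs only. It had 0.891, 1.09, 0.686 and 0.941 CPM in fresh and 0.126, 0.254, 0.373 and 0.262 CPM in DMSO libraries, lower in 4 of 4 animals, and fell by 1.77 on the log2 scale (SE 0.40, edgeR adjusted p = 0.027). Without NC2 or PC2 the call was lost (adjusted p = 0.133 and 0.0904), as it was without the animal block (0.135). Without NC1, Klrg1 was called as well. Mast cell and basophil markers were lower in the same sums, with 2 of 3 called, and so were 3 of 3 hepatocyte markers. Their part in the Klrb1 value was not tested.

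In Ncr1 positive barcodes 0 of 18 members were called for preservation by edgeR, where 2.61% of all genes were higher and 3.25% lower. DESeq2 called 0 of them. An unadjusted edgeR p under 0.05 was found for 5 members, where 19.9% of all genes had one. Klrg1 had 59.2, 49.7, 51.2 and 102 CPM in fresh and 133, 86.1, 52.0 and 108 CPM in DMSO libraries, a log2 difference of 0.43 (SE 0.14, edgeR adjusted p = 0.0909). The level was higher in 4 of 4 animals, but clearly so only in both NC animals. In cytotoxic Cd3-low barcodes Klrg1 was called, with 0.56 (SE 0.13, adjusted p = 0.0142), from 95.7, 79.9, 98.5 and 185 CPM to 215, 136, 140 and 182 CPM, higher in 3 of 4 animals. Klra2 differed by 0.50 (adjusted p = 0.0712), Klrb1c by 0.22 (adjusted p = 0.111) and Klrd1 by 0.20 (adjusted p = 0.18) in Ncr1 positive barcodes. Without NC1 Klra2 was called, and without PC1 Klrg1. In Cd3-high barcodes 0 of 16 members were called by edgeR, where 1.06% of all genes were higher and 0.808% lower.

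The number of members per Ncr1 positive barcode, thinned to 1000 UMIs, was 2.27, 2.63, 2.51 and 2.58 in fresh NC1, NC2, PC1 and PC2, and 2.47, 2.72, 2.43 and 2.87 after DMSO. The number was higher in 3 of 4 animals and differed on average by 0.124 ± 0.160 members (SD, n = 4, two-sided exact permutation of signs, p = 0.25). The smallest p that 4 animals allow is 0.125. The share of all barcodes with a member UMI, thinned to 500 UMIs, was 45.9%, 58.5%, 47.1% and 50.8% in fresh and 32.2%, 48.4%, 46.5% and 57.9% in DMSO libraries. The share was lower in 3 of 4 animals and higher in PC2, and the average DMSO minus fresh difference was -4.33 ± 9.35 percentage points (SD, n = 4, same exact permutation test, p = 0.375). Unthinned, the means were 92.3% in fresh and 88.1% in DMSO libraries.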

How the data were processed

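Livers were pushed through filters, red cells were lysed and immune cells were taken by density separation. Per the labels, the authors made UMI counts per gene and barcode with Cell Ranger 2.1.1, bcl2fastq 2.17.1.14 and STAR on Rnor6.0 (Ensembl annotation), and the deposited counts are raw and list every barcode. Barcodes with at least 500 UMIs were kept, doublets included. The members, gene lists and named genes were chosen with earlier results of these data known. Counts were summed per library and class and compared with edgeR 4.0.16 in R 4.3.3 (TMM, low-count filter, quasi-likelihood test, animal as a block for preservation and for Ncr1 against Cd3e). Called means a Benjamini-Hochberg adjusted p under 0.05 over all genes tested. Tests over cells were not used, since cells are not replicates.

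Fresh and DMSO libraries of 1 animal come from the same liver. Their deviations from the group means correlated with r = 0.583 to 0.732 over all barcodes, where the highest r with another animal was 0.339. In Ncr1 positive barcodes r was weaker, 0.369 to 0.647, and at most 0.259 with another animal. Numbers of members were compared at equal depth by the expected number after thinning, by exact permutation of 16 sign changes. Levels in classes are CPM of summed counts, and levels beside a comparison are CPM scaled by TMM in that fit, so the same library can have slightly different values in different comparisons. Single shares and limits cover counting error only. Alternatives were DESeq2 1.42.0 size factors and test, other filters on genes and barcodes, at least 2 marker UMIs, under 20% mitochondrial UMIs, no barcodes with B cell or C1q markers, no block, other thinning depths and each animal left out. Classes by marker level, the pairs in them and the interaction with diet were added after seeing the data. Named were the 8 members with the most UMIs, called members (up to 6 per direction, or 8 by adjusted p for animals), the 5 highest and 5 lowest between Ncr1 and Cd3e positive barcodes, the 4 highest and 4 lowest pairs, and members without a UMI. Others were named after their values were seen. The fits were tested on simulated data with 200 genes changed, where every gene had the same spread beyond counting error. For preservation over all barcodes 87 of 100 genes changed 2-fold were found among 11578, with 13 false calls. Python 3.11.15, numpy 2.4.6, pandas 2.3.3, scipy 1.17.1 and matplotlib 3.10.9 were used. Promoters are those of RefSeq on GRCr8, which is not the build of the counts, and only symbols were matched.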

Additional observations from a re-analysis of the deposited data

Results flagged for a closer look

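Klrc2, an activating partner of Klrd1, moved differently with preservation in animals on different diets. Over all barcodes it had 63.8, 104, 62.4 and 62.8 CPM in fresh and 35.8, 62.9, 64.0 and 79.2 CPM in DMSO libraries of NC1, NC2, PC1 and PC2. It was lower after DMSO in both CSAA animals and higher in both CDAA animals. The difference between the diets (CDAA minus CSAA) was 0.97 on the log2 scale (SE 0.13, edgeR adjusted p = 0.0678), past no threshold after adjustment. The share of Ncr1 positive, Cd3e negative barcodes went from 15.3%, 20.5%, 20.5% and 26.0% to 6.89%, 11%, 17.3% and 27.6% in the same libraries, and within these barcodes the difference for Klrc2 was 0.60 (adjusted p = 0.728). Over all barcodes 7 of 20 members, Klrc2 among them, had an unadjusted p under 0.05 for this difference, as did 765 of 12163 genes, and 4 genes were called. The other 6 were Klri1, Klrb1b, Klrd1, Klre1, Klri2 and Klrk1, all with positive differences of 0.37 to 0.72.

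Ly49i3 in Ncr1 positive barcodes was also opposite between diets, from 6.90 and 16.7 CPM to 11.2 and 21.7 CPM in NC1 and NC2, and from 21.5 and 8.52 CPM to 12.6 and 6.94 CPM in PC1 and PC2. The difference was -1.01 (SE 0.35, edgeR adjusted p = 0.876). Klrg1 had the lowest p in these barcodes, with a difference of -0.90 (adjusted p = 0.171), and no gene of 9603 was called.

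Barcodes of 1 to 100 UMIs, outside the cells compared, held 31761 member UMIs.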

How the results depend on the processing

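Of the alternatives for counts of called members and single measures, 102 stayed within the limits of the reported value and 20 moved. For the single measures, staying meant only the same sign and the same side of the threshold. The paired test of 4 animals allows no p under 0.125, so the side could hardly change. For single members named, 683 values kept direction and side of the threshold. Another 41 kept the direction but lost the call, 16 gained a call and 13 reversed. Values for animal labels, which are the highest minus the lowest animal, cannot reverse. The reversed values are those of Klra2 and Ly49i3, not called as reported, for Ncr1 against Cd3e. With classes by marker level they were -0.55 for Ly49i3 and 0.44 for Klra2 in fresh, and -0.37 and 0.64 in DMSO libraries. With at least 2 marker UMIs they were -0.47 and 0.072 in DMSO libraries. Ly49i3 in DMSO libraries, near 0 as reported, was -0.0055 with DESeq2 size factors, -0.0080 with the DESeq2 test, -0.0033 without a filter and -0.0086 under 20% mitochondrial UMIs, and -0.19 to 0.29 with 1 animal left out. For preservation over all barcodes 2 members were called, and 1 was with a 2-fold minimum, with the DESeq2 test, with at least 10 UMIs in every sum or without barcodes with B or C1q markers. In Ncr1 positive barcodes 0 became 2 without a filter (Klrg1, Klra2) or without barcodes with B or C1q markers (Klrg1, Klrd1), and 1 with at least 2 marker UMIs (Klra2) or classes by marker level (Klrg1). For diet 0 became 3 in fresh libraries (Klrg1, Klra1, Klra5) and 1 in DMSO libraries (Klra1) without a filter. For animal labels 5 of 12 were also 2-fold, 8 were called with at least 2 marker UMIs, 9 with the DESeq2 test, 11 with at least 10 UMIs in every sum, 13 without barcodes with B or C1q markers and 15 without a filter. The fits without the animal block, which ignore the pairing, called 0 members for preservation over all barcodes, 0 in Ncr1 positive barcodes, 10 for Ncr1 against Cd3e in fresh and 11 in DMSO libraries.

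Leaving out 1 animal gave 1 to 3 members for preservation over all barcodes, 0 to 1 in Ncr1 positive barcodes, 0 to 1 for diet in fresh and 0 to 3 in DMSO libraries, 8 to 12 for animal labels, 16 to 17 for Ncr1 against Cd3e in fresh and 16 in DMSO libraries. The difference in members per barcode ran from 0.0692 to 0.194 and that in the share with a member UMI from -8.12 to -1.22. Over all genes, the fits without the block called 16 genes in place of 1044 for preservation, 18 in place of 530 in Ncr1 positive barcodes, 131 in place of 1660 for Ncr1 against Cd3e in fresh and 213 in place of 1659 in DMSO libraries. DESeq2 called 230 for preservation in Ncr1 positive barcodes, 241 in place of 136 for diet in fresh libraries and 885 in place of 1695 for animal labels. Without a filter 961 were called for diet in fresh libraries, 437 in place of 153 in DMSO libraries and 788 for preservation in Ncr1 positive barcodes. The causes were not tested.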
